A study of Mus musculus with 13 samples.

Results

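Mouse cells sorted from hindlimb skeletal muscle were compared in culture, once while they multiplied and once while they differentiated. The cells are called smooth-muscle/mesenchymal-like cells (SMMC) by the submitters. They were taken from wild type C57BL/6 mice aged 2 months and sorted as negative for CD31 (an endothelial antigen), CD45 (a blood cell antigen), Sca1 (found on mesenchymal progenitors) and VCAM1, and positive for ITGA7, the integrin alpha 7 chain. All groups carry the same genotype, and the proliferating and differentiating cultures were started from cells of this gate. The proliferating SMMC had been grown for 3 days after sorting (n = 3 libraries), and the differentiating SMMC had been grown and then allowed to differentiate (n = 3 libraries). The labels give neither the days nor the medium of the differentiating cultures, so differentiation, time in culture and medium cannot be told apart. Each library was a Smart-seq2 library, made from polyadenylated RNA by copying and amplifying full-length cDNA. Replicates are numbered, but nothing states that they were separate animals or cultures, so each p-value reflects how far these libraries scatter, and that scatter may be technical. A gene entered the comparison when at least 3 of the 6 libraries had 1 FPKM or more (fragments mapped per kilobase of transcript, scaled to the library's total). This left 10786 of the 24411 genes in the bulk table. Fresh SMMC (n = 3) and fresh muscle stem cells (MuSC, n = 2; sorted for the same antigens but VCAM1-positive) are given only as levels. Values are listed in the order of replicates 1, 2 and 3.

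Skeletal muscle fibres are made by myoblasts that stop dividing, switch on muscle structural genes and fuse. The switch is run by basic helix-loop-helix factors: MYF5 and MYOD1 mark the committed, dividing myoblast, and myogenin (MYOG) and MYF6 act later, with MEF2 factors as partners. ID proteins and other repressors hold these factors back in dividing cells, and CDK inhibitors close the cell cycle as the muscle genes come on. Early fibres in culture use embryonic and perinatal forms of contractile proteins, which adult muscle replaces with fast or slow forms.

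The 6 libraries separated by culture state. Spearman's rho across the tested genes, which are not independent replicates, lay between 0.940 and 0.979 within a group and between 0.760 and 0.833 across groups. Between 9866 and 10692 genes per library reached 1 FPKM, and Rn45s, the ribosomal RNA precursor, took 4.11% to 9.61% of the summed FPKM. Proliferating replicate 1 stood apart in one respect: its deviations from the group mean ran against transcript length (r = -0.35 over 10412 genes), where the other 5 libraries lay between -0.14 and 0.27. Low values in that library are pointed out below for some long transcripts, and others may be touched as well. Differentiating replicate 3 was low in matrix genes, and differentiating replicate 2 was high in Id1, Id3 and interferon genes, as described below with their values.

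The sort genes and the defining markers were read against the label. Ptprc, which encodes CD45, was at 0 in every proliferating library and at 0.00421, 0 and 0 FPKM in the differentiating ones, and Pecam1, which encodes CD31, did not exceed 0.731 FPKM in these 6 libraries. Vcam1, whose antigen the sort selected against, was not absent: it stood at 24.9, 23.4 and 18.5 FPKM in fresh, 18.97, 28.8 and 28.9 in proliferating and 4.56, 3.95 and 14.2 in differentiating SMMC, against 143 and 95.5 in VCAM1-positive MuSC. Fresh SMMC also held 12.5, 12.0 and 19.7 FPKM of Pecam1 and 9.51, 15.9 and 19.9 of Ly6a, which encodes Sca1. The RNA of these 3 genes in cells sorted as negative goes against the label; surface protein was not measured in these files. Myh11, the myosin heavy chain that defines contractile smooth muscle, stood at 53.4, 52.9 and 78.9 FPKM in fresh SMMC but at 0.0104, 0.0799 and 0.0391 in proliferating and 0.00697, 0 and 0 in differentiating SMMC. The 15 listed smooth muscle contractile genes did not all follow Myh11. Their sum, which includes Acta2 (given below), was 1469 to 2207 FPKM in fresh, 720 to 977 in proliferating and 1270 to 1763 in differentiating SMMC. In all libraries of the group, 6 of them stayed under 1 FPKM in proliferating and 3 in differentiating SMMC. Rgs5, a pericyte marker, stood at 688, 1249.7 and 1573 FPKM in the fresh cells, 3.09, 2.30 and 4.33 in the proliferating and 0.415, 0.147 and 0.943 in the differentiating cultures. Dcn, a fibroblast proteoglycan, stood at 3528, 2613 and 1819 FPKM in fresh cells, and Tnmd, a tendon marker, at 4526, 2638 and 1642. In the 6 cultured libraries Dcn lay between 1.42 and 37.9 FPKM and Tnmd between 0.314 and 6.16. Myod1 was at 1097, 1094 and 1016 FPKM in the proliferating cultures, above the 81.9, 90.0 and 44.9 FPKM of fresh SMMC and the 372 and 256 FPKM of fresh MuSC. In both culture states the cells labelled SMMC thus carried skeletal myogenic genes at high level, with Myh11, Rgs5 and Tnmd far below the fresh cells. The cultures are called SMMC here by their label. In bulk samples, fewer cells of a type and less RNA per cell cannot be told apart.

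Differentiation came with a wide change of the transcriptome. limma, with Benjamini-Hochberg adjustment over all tested genes, called 4946 of 10786 genes (45.9%) at an adjusted p under 0.05. Of these, 2461 (22.8% of tested genes) were higher and 2485 (23.0%) were lower in differentiating SMMC. At least 2-fold changes made up 1676 of the higher calls (15.5% of tested genes) and 1398 of the lower calls (13.0%). The median log2 change over all tested genes was -0.03. These shares are the background for each gene list below, since many genes passed in each direction. In 6107 genes (56.6%) the values of the 2 groups did not overlap, 3010 (27.9%) with differentiating SMMC higher and 3097 (28.7%) with them lower. A gene that reached 1 FPKM in every library of a single group and in no other cannot overlap, so the filter itself adds to this count. The most abundant entries after Rn45s were Acta1, Tnni1, Tmsb10 and Aldoa in differentiating SMMC and Rplp0, Ftl1, Tmsb10 and Pfn1 in proliferating SMMC. Acta1 (skeletal alpha actin) and Tnni1 (slow troponin I) are parts of the sarcomere, whereas Rplp0 is a ribosomal stalk protein, Ftl1 the ferritin light chain and Pfn1 an actin monomer binder.

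**Figure D1:**
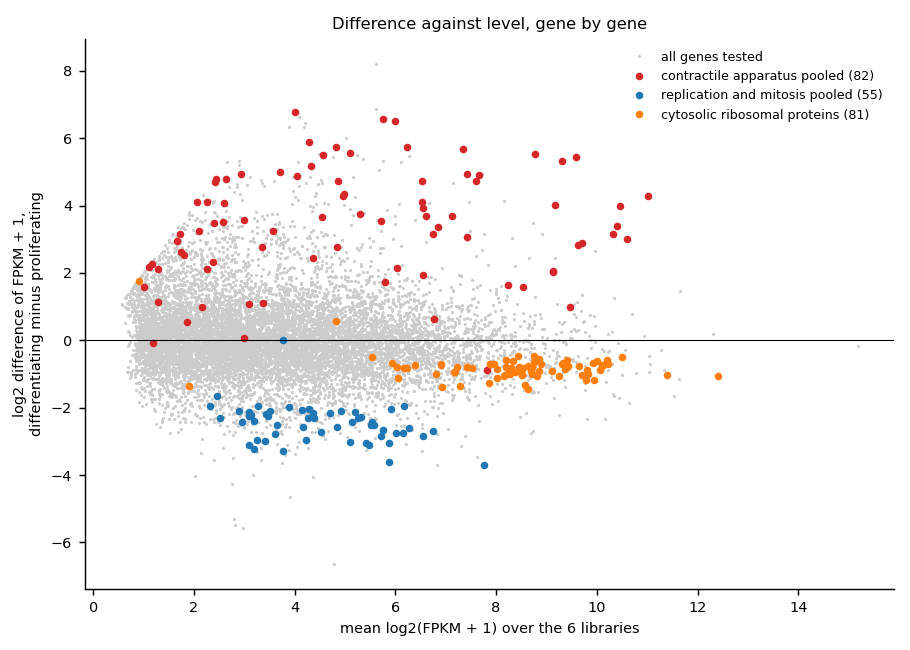
Log2 difference of FPKM + 1 (differentiating minus proliferating SMMC) against the mean log2(FPKM + 1) of the 6 libraries, 1 point per tested gene (10786 in grey), with 3 groups of listed genes in colour. Of 82 contractile genes (red) 77 were called higher, of 55 replication and mitosis genes (blue) 54 were called lower, and of 81 ribosomal protein genes (orange) 77 were called lower at high expression levels.

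Promoter sequences of 2 genes that rose and 2 that fell are printed to show which short motifs stand where. The genes were picked by hand as examples, and their windows need not be typical. The windows run from 250 bases before to 50 bases after the start of the gene, on the gene's own strand, in RefSeq's GRCm38.p6 (the mm10 assembly). Tnni1 (chr1:135799171-135799470, plus strand) and Chrng, the fetal gamma subunit of the acetylcholine receptor (chr1:87205561-87205860, plus strand), are examples of genes that rose. Capitals in these mark the E-boxes CAGCTG and CACCTG, the letters that myogenic helix-loop-helix factors read. Cdk1, the mitotic kinase (chr10:69352863-69353162, minus strand), and Cdc20, an activator of the anaphase-promoting complex (chr4:118437294-118437593, minus strand), are examples of genes that fell. Capitals in these mark CCAAT and TTTGAA; the latter is the cell cycle genes homology region (CHR), which the DREAM and MYB-MuvB complexes read. Where a motif lies on the other strand, its reverse complement is in capitals.
Tnni1: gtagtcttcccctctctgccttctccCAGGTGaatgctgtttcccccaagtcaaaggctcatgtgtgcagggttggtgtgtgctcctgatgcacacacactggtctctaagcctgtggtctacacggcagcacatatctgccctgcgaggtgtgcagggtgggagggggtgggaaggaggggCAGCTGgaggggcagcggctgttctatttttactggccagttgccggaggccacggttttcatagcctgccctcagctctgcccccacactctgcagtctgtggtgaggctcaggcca
Chrng: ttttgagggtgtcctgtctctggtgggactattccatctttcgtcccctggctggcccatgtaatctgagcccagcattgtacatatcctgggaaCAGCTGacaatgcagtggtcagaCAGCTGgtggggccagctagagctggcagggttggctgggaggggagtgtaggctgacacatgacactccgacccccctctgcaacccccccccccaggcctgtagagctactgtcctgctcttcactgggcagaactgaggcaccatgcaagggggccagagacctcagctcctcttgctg
Cdk1: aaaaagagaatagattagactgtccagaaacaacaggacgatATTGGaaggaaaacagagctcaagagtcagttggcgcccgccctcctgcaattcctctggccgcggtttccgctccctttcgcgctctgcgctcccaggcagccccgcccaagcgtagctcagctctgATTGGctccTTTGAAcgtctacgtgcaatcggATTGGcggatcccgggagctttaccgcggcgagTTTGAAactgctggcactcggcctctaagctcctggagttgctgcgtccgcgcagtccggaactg
Cdc20: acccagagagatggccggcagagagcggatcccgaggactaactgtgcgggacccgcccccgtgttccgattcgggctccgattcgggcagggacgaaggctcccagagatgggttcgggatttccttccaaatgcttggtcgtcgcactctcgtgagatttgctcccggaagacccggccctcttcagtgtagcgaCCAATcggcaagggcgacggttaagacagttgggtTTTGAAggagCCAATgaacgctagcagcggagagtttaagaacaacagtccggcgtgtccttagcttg
The printed Tnni1 window is the upstream one of 2 for this gene.

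Motifs were searched on both strands, as exact letters, in 32851 windows of 300 bases. Of the 28 mitosis genes 23 had a window, 24 windows in all, and TTTGAA was in 17 of them (70.8%), against 17.9% of all windows and 12.0% of the 11019 windows of tested genes. CCAAT was in 19 of the 24 (79.2%), against 37.4% of all windows and 38.1% of those of tested genes. Of the 27 DNA replication genes 22 had a window, 27 windows in all: CCAAT was in 16 (59.3%) and TTTGAA in 3 (11.1%). Both lists fell, while the share of windows with TTTGAA was 70.8% in the mitosis list and 11.1% in the replication list. Of the 82 tested contractile genes 58 had a window, fewer than 80%, so a share over that list is void and none is given. Of the E-boxes, CAGCTG was in 16.3% of all windows and CACCTG in 20.2% (15.3% and 16.7% of those of tested genes). A match describes letters only and shows no binding.

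The myogenic factors moved in opposite directions. All 12 listed myogenic transcription factors passed the filter: 7 were called higher and 4 lower, with a median log2 change of 1.20. Myod1 fell from 1097, 1094 and 1016 FPKM in proliferating to 343, 362 and 532 in differentiating libraries (log2 change -1.40, SE 0.18, limma adjusted p = 0.00064). The groups did not overlap, and the lowest differentiating library still held 343 FPKM. Myf5, the other early factor, which is counted with the stem cell genes below, stood at 38.4, 64.5 and 70.5 FPKM against 11.6, 3.66 and 33.6 (4.50-fold lower, limma adjusted p = 0.024). Differentiating replicate 3 held most Myf5 of its group, and the call was lost without differentiating replicate 1 or without proliferating replicate 2 or 3 (limma adjusted p = 0.068, 0.071 and 0.062).

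The late factors rose. Myog stood at 358, 392 and 446 FPKM in differentiating and 137, 81.1 and 247 in proliferating libraries (2.82-fold higher, limma adjusted p = 0.0095). Proliferating replicate 3 was the highest of its group for Myog, as it was for most contractile genes. Myf6, the latest of the family, rose from 1.11, 0.564 and 0.939 to 24.0, 12.2 and 19.7 FPKM (log2 change 3.35, SE 0.29, limma adjusted p = 0.00012). Mef2c, a MADS-box partner of myogenin, moved furthest, from 7.36, 4.42 and 14.4 to 311, 265 and 315 FPKM (33.5-fold, limma adjusted p = 5.5e-05). Tead4, a Hippo pathway factor that binds muscle promoters, rose 3.42-fold (limma adjusted p = 0.00079). Against them, Pitx3 fell from 22.2, 21.2 and 24.7 to 6.07, 3.15 and 8.43 FPKM (limma adjusted p = 0.0017). Without differentiating replicate 1 the list's count of lower calls was 2.

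Of 11 listed inhibitors of myogenic factors 7 were tested, and 4 were called lower and 2 higher. Id3 stood at 744, 638 and 590.5 FPKM in proliferating and 10.5, 198 and 88.7 in differentiating libraries (log2 change -3.47, SE 0.87, limma adjusted p = 0.013). Id1 stood at 347, 315 and 242 against 13.5, 143 and 37.8 FPKM (limma adjusted p = 0.012), and Id2 at 542, 429 and 373 against 30.3, 81.6 and 90.6 FPKM (limma adjusted p = 0.00072). ID proteins dimerise with the partners of MYOD1 and lack a DNA-binding region. Each was lower in every differentiating library than in any proliferating one, by very different amounts: differentiating replicate 2 kept the most Id1 and Id3 and replicate 1 the least. Snai1, a zinc finger repressor, also fell (log2 change -1.48, limma adjusted p = 0.0039). Zeb1, another zinc finger repressor of muscle genes, rose instead, from 8.45, 8.24 and 11.4 to 40.3, 37.9 and 45.9 FPKM (4.12-fold, limma adjusted p = 0.00016). Bhlhe40 (also DEC1), a helix-loop-helix repressor, rose from 4.22, 4.98 and 2.56 to 42.7, 51.6 and 27.1 FPKM (8.34-fold, limma adjusted p = 0.00019). In fresh SMMC Zeb1 stood at 57.1, 57.9 and 49.0 FPKM and Bhlhe40 at 104.8, 97.8 and 108, so the differentiating cultures lay nearer to the fresh cells for these 2 genes. Msc, a further inhibitor, was at most 1.01 FPKM in the 6 libraries and was not tested.

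Stem cell genes were mixed. Of 15 listed muscle stem cell genes 12 were tested, with 3 called higher and 2 lower and a median log2 change of -0.14. These shares, 25.0% and 16.7%, lie near the background of 22.8% and 23.0%. Without differentiating replicate 2 the count of higher calls was 5, and without differentiating replicate 1 or proliferating replicate 2 or 3 that of lower calls was 1. Pax7, the factor that defines the quiescent stem cell, stood at 1.42, 4.74 and 4.31 FPKM in proliferating and 1.66, 0.131 and 2.78 in differentiating libraries, overlapping (limma adjusted p = 0.17), against 19.3 and 20.3 FPKM in fresh MuSC. Cdh15 (M-cadherin) rose from 41.9, 63.9 and 75.2 to 111, 116 and 116 FPKM (limma adjusted p = 0.0081), and Tenm4 and Spry1, an inhibitor of growth factor signalling, were 4.41-fold and 2.19-fold higher (limma adjusted p = 0.0011 and 0.0022). Sdc3, a cell surface proteoglycan of dividing myoblasts, fell from 43.9, 58.6 and 59.8 to 8.17, 7.78 and 7.97 FPKM (limma adjusted p = 6.1e-05). Of the sort antigens, Vcam1 fell 3.49-fold, with differentiating replicate 3 the highest of its group (limma adjusted p = 0.0093). Itga7 was at 114, 75.6 and 129 FPKM against 15.3, 48.5 and 57.9, with proliferating replicate 1 the lowest (limma adjusted p = 0.027). That call was lost without differentiating replicate 1 (limma adjusted p = 0.082) or replicate 3 (0.076). Ly6a was at 9.45, 17.5 and 5.26 FPKM against 6.16, 3.06 and 4.17 and did not pass (limma adjusted p = 0.075), but did without differentiating replicate 3 (0.019).

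**Figure D2:**
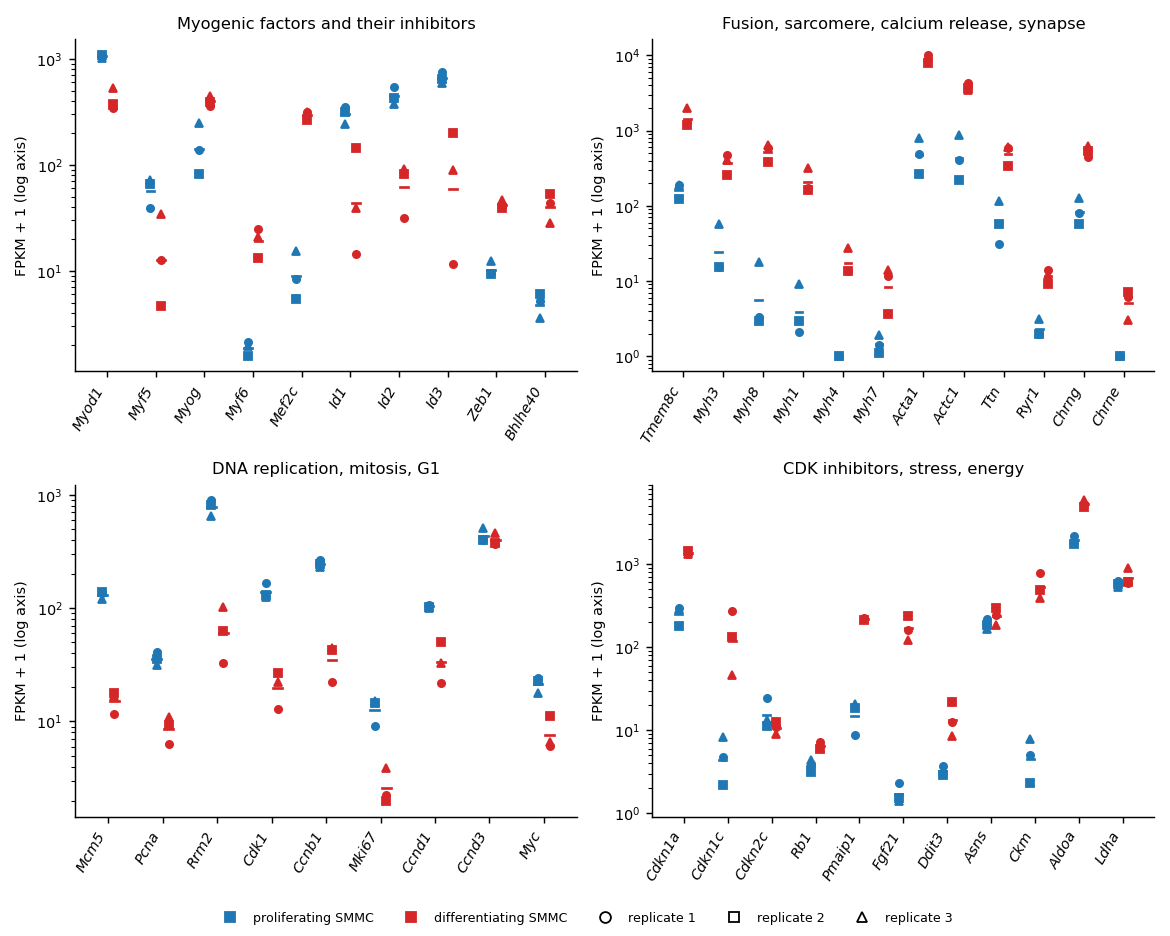
FPKM + 1 on a log axis for genes of 4 roles, 1 point per library (shape gives the replicate), with blue for proliferating and red for differentiating SMMC and a bar at the mean of the log values (n = 3 each). Myod1 and Id1 to Id3 lie lower and Myog, Mef2c and the sarcomere genes higher in all 3 differentiating libraries, while Ccnd3, Cdkn2c, Asns and Ldha overlap.

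The 2 genes that encode the muscle fusion proteins were measurable in the proliferating cultures and higher in the differentiating ones. Of 16 listed fusion genes 11 were tested, with 4 called higher and 2 lower. Tmem8c encodes myomaker (now Mymk), the membrane protein that makes myoblasts competent to fuse, and stood at 186, 121 and 187 FPKM in proliferating and 1247, 1176 and 2014 in differentiating libraries (8.83-fold, limma adjusted p = 0.0001). Gm7325 encodes its partner myomerger (now Mymx) and stood at 22.5, 7.84 and 43.5 against 71.4, 63.2 and 71.5 FPKM (log2 change 1.73, limma adjusted p = 0.023, and 0.068 and 0.055 without differentiating replicate 1 or 3). The differentiating values of Gm7325 were close to each other, and the spread lay in the proliferating libraries, where replicate 3 was highest. In fresh MuSC both genes were near 0 or 1 FPKM (1.10 and 0.850 for Tmem8c and 0 and 0.0829 for Gm7325). Dysf (dysferlin, a membrane repair protein) rose 8.35-fold and Ncam1, the neural cell adhesion molecule, 3.26-fold (limma adjusted p = 0.00016 and 0.00019). Kirrel, a cell adhesion protein, fell from 5.38, 13.1 and 13.2 to 1.38, 3.10 and 1.59 FPKM (limma adjusted p = 0.0042). Myof (myoferlin) was the other gene called lower (1.56-fold, limma adjusted p = 0.048). The count of lower calls was 1 when any 1 library other than proliferating replicate 1 was left out.

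The contractile apparatus rose nearly as a whole. Of the 84 genes of thick filament, thin filament, Z-disc and excitation-contraction coupling, 82 were tested: 77 were called higher and 1 lower, with a median log2 change of 3.50. The count stayed at 77 when any 1 of the 6 libraries was left out. Their summed level was 4294 to 8242 FPKM in proliferating and 57063 to 67186 FPKM in differentiating libraries, against 1964 to 2156 in fresh SMMC. Among proliferating libraries replicate 3 had the highest sum. Expression of these genes was thus measurable in the proliferating cultures, at 485, 268 and 806 FPKM for Acta1, and many times higher in the differentiating ones. Whether few or all cells of the proliferating cultures carried these transcripts was not tested.

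Myosin heavy chains are encoded by a family in which each member marks a stage or fibre type. Myh3, the embryonic form, stood at 14.6, 14.2 and 57.2 FPKM in proliferating and 466, 259 and 407 in differentiating libraries (15.3-fold, limma adjusted p = 0.00056). Myh8, the perinatal form, stood at 2.31, 1.96 and 16.8 against 589.9, 377 and 650.0 FPKM (94.2-fold, limma adjusted p = 0.00018). Of the adult fast forms, Myh1 (type 2X) reached 172, 159.9 and 317 FPKM from 1.12, 1.93 and 8.26 (53.5-fold, limma adjusted p = 0.00016). The 3 differentiating libraries agreed on the order of these levels: the developmental forms Myh3 and Myh8 lay above Myh1 in replicates 1, 2 and 3, and all 3 genes lay far above the proliferating group. Myh4 (type 2B) was at most 0.0119 FPKM in proliferating cells and at 12.4, 12.5 and 26.7 FPKM in differentiating ones (limma adjusted p = 8.0e-05). Myh7, the slow and cardiac form, remained low at 10.5, 2.69 and 12.9 FPKM against 0.433, 0.107 and 0.941 (limma adjusted p = 0.0038). FPKM is scaled to transcript length, which allows only a rough comparison of these levels within a library. Length effects differed between libraries, and the handling of reads shared by near-identical paralogues is not named, so the order is uncertain.

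The essential light chains Myl1 and Myl4 reached higher FPKM values than the heavy chains given above, with the same limit. Myl1, the fast essential light chain, rose from 93.6, 50.5 and 205 to 3820.1, 3764 and 4412 FPKM (39.8-fold, limma adjusted p = 0.0001), and Myl4, the embryonic and atrial form, from 60.5, 34.5 and 124 to 3236, 3035 and 2696 FPKM (46.0-fold, limma adjusted p = 6.4e-05). Mylpf, the fast regulatory light chain, was 12.9-fold and Mybph, a myosin binding protein, 30.3-fold higher (limma adjusted p = 8.2e-05 and 7.0e-05). Of the 19 thick filament genes 17 were called higher and none lower; the other two, Mylk2 and Mylk4, are myosin light chain kinases and were picked out after their values were seen. In the thin filament 17 of 18 genes were called higher. Acta1 reached 10282, 7939 and 9524 FPKM (19.5-fold, limma adjusted p = 0.00011). Actc1, the cardiac actin that embryonic skeletal muscle also uses, rose from 408, 223 and 885 to 4354, 3687 and 3453 FPKM (8.82-fold, limma adjusted p = 0.00075).

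Troponins of slow, fast and cardiac type rose side by side. Tnni1 (slow troponin I) stood at 374, 214 and 539.6 FPKM in proliferating and 5975, 5110.5 and 5685 in differentiating libraries, and Tnni2 (fast troponin I) at 14.1, 10.4 and 20.4 against 204, 152 and 182 FPKM. The log2 changes were 3.99 and 3.54 (limma adjusted p = 8.0e-05 and 5.9e-05), but the slow form stayed the far more abundant one in every library. Tnnt2 (cardiac troponin T, also used by embryonic skeletal muscle) and Tnnt3 (fast troponin T) reached similar levels, at 4655, 4087 and 4539 and 4541, 3816 and 4834 FPKM. Tmod1, which caps actin filaments, was 29.6-fold and Tpm2, beta tropomyosin, 7.15-fold higher (limma adjusted p = 4.7e-05 and 4.7e-05). The exception was Tpm3, a tropomyosin gene that gives both cytoskeletal and slow muscle forms, which fell from 375, 292 and 265 to 148, 202 and 151 FPKM (limma adjusted p = 0.0058).

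All 24 tested genes of the Z-disc and its scaffold, of 25 listed, were called higher. Ankrd23, a titin-binding ankyrin repeat protein, rose from 0.825, 0.320 and 0.494 to 197, 122.7 and 190.3 FPKM (109-fold, limma adjusted p = 6.1e-06). Myot (myotilin), Tcap (telethonin) and Capn3, a muscle calpain, rose 58.7-fold, 53.9-fold and 30.7-fold (limma adjusted p = 4.0e-05, 4.8e-05 and 3.5e-05). Actn3, the fast-fibre alpha actinin, was already at 235, 253 and 477 FPKM in proliferating cells and reached 2117, 2187 and 2552, whereas Actn2 went from 24.5, 22.8 and 87.4 to 1301, 733 and 1037 FPKM. Ttn (titin), the giant spring of the sarcomere, stood at 30.3, 56.9 and 116 FPKM in proliferating libraries, lowest in replicate 1, and at 589, 334 and 614 in differentiating ones (8.31-fold, limma adjusted p = 0.0011). Without proliferating replicate 1 its log2 change was 2.59 (limma adjusted p = 0.0024).

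The machinery that couples excitation to contraction came up with the filaments. Of 22 listed genes 21 were tested, and 19 were called higher and none lower, with a median log2 change of 2.32. Casq1 (calsequestrin), the calcium store protein of the sarcoplasmic reticulum, rose from 5.21, 2.14 and 14.2 to 588, 521 and 749 FPKM (92.0-fold, limma adjusted p = 8.1e-05). Atp2a1 (SERCA1), the calcium pump of fast fibres, rose from 10.7, 13.1 and 71.3 to 1268, 909 and 1347 FPKM (50.7-fold, limma adjusted p = 0.00028). The voltage sensor Cacna1s reached 22.7, 13.4 and 22.8 FPKM and the release channel Ryr1 13.2, 8.03 and 10.98 FPKM, from 0.333, 0.428 and 1.87 and 0.9746, 0.967 and 2.15 (limma adjusted p = 0.00022 and 0.00046). Sln (sarcolipin), an inhibitor of the calcium pump, was 27.7-fold higher and Trdn (triadin) 31.8-fold (limma adjusted p = 6.4e-05 and 6.7e-05). Pvalb (parvalbumin), the calcium buffer of mature fast fibres, was called but low, at 4.12, 3.73 and 3.996 FPKM.

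Receptor subunits of the neuromuscular junction followed the fetal pattern. All 12 listed genes were tested; 7 were called higher and none lower. Chrna1, the alpha subunit of the acetylcholine receptor, was high in both states, at 689.5, 564 and 563 FPKM in proliferating and 954, 941 and 1046 in differentiating libraries (1.62-fold, limma adjusted p = 0.0045), and low in fresh SMMC (7.26, 4.07 and 1.78 FPKM). Chrng, the fetal gamma subunit, rose from 78.6, 56.2 and 127 to 449, 532 and 621 FPKM (6.35-fold, limma adjusted p = 0.00026). Chrne, the adult epsilon subunit that replaces it, was listed at 0 in all 3 proliferating libraries and at 5.05, 6.06 and 2.06 FPKM in the differentiating ones (limma adjusted p = 0.00071). The fetal subunit thus stayed far above the adult one in every library. Ache (acetylcholinesterase) rose from 1.36, 0.351 and 1.42 to 9.34, 11.1 and 6.89 FPKM and Colq, the collagen tail that anchors it, from 0.895, 1.61 and 0.460 to 40.3, 55.9 and 58.0 FPKM (limma adjusted p = 0.00058 and 4.0e-05). The 5 genes that did not pass, named after their values were seen, were Musk, Dok7, Lrp4, Agrn and Rapsn, which build the agrin receptor complex and cluster the receptors. Agrn was called lower without proliferating replicate 1.

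The dystrophin complex, which ties the cytoskeleton of the fibre to the matrix, also rose: 11 of 12 tested genes were called higher and none lower. Dmd (dystrophin) stood at 0.106, 0.233 and 0.297 FPKM in proliferating and 9.24, 5.51 and 7.42 in differentiating libraries (6.82-fold, limma adjusted p = 0.00012), and at 13.3, 16.8 and 20.5 in fresh SMMC. Its homologue Utrn (utrophin) changed less, from 91.5, 92.5 and 93.6 to 147, 122 and 141 FPKM (1.47-fold, limma adjusted p = 0.011). Cav3, the muscle caveolin, was 16.9-fold higher (limma adjusted p = 0.00024).

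Energy metabolism changed by isoform more than as a whole. Of 21 listed genes of muscle energy supply 19 were tested, and 16 were called higher and none lower (median log2 change 3.69). Ckm, the muscle creatine kinase, went from 4.02, 1.33 and 6.92 to 770.5, 488 and 386 FPKM, and Ckmt2, its mitochondrial counterpart, from 0, 0.539 and 4.07 to 130.2, 101 and 383 FPKM (87.0-fold, limma adjusted p = 0.00024). Differentiating replicate 1 was the highest for Ckm and replicate 3 for Ckmt2. Cox6a2 and Cox8b, the muscle forms of 2 cytochrome oxidase subunits, rose 63.7-fold and 80.2-fold (limma adjusted p = 4.7e-05 and 8.0e-06), to 298, 207 and 275 and 142, 137 and 219.7 FPKM. Mb (myoglobin), Pygm (muscle glycogen phosphorylase) and Pfkm (muscle phosphofructokinase) were 44.2-fold, 41.5-fold and 30.7-fold higher (limma adjusted p = 4.0e-05, 4.0e-05 and 4.5e-05).

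The general respiratory genes moved less. Of 26 genes of oxidative phosphorylation and the citrate cycle 8 were called higher (30.8% against the background of 22.8%) and 1 lower, with a median log2 change of 0.29. The count of 8 was not stable: it was 3 without proliferating replicate 2, 4 without differentiating replicate 3, and 5 without differentiating replicate 1, without proliferating replicate 3 or with the replicate number as a block. The lower call, of Tfam, a mitochondrial transcription factor, was lost when any 1 library was left out. Cox5b rose 1.66-fold (limma adjusted p = 0.0061), whereas Cox5a, at 807, 717 and 991 against 769.8, 623 and 610.3 FPKM, and Cs (citrate synthase) did not pass (limma adjusted p = 0.15 and 0.89). In glycolysis 7 of 18 tested genes were called higher and 2 lower. Slc16a3, the lactate exporter, rose from 3.72, 3.54 and 4.40 to 61.0, 34.4 and 60.4 FPKM (10.5-fold, limma adjusted p = 7.8e-05). Aldoa (muscle aldolase) went from 2149, 1759.8 and 1937 to 5270.1, 4834 and 5935 FPKM and Tpi1 and Slc2a1 (the glucose carrier GLUT1) rose 2.59-fold and 2.55-fold (limma adjusted p = 0.00024, 0.00026 and 0.00064). Eno1, the ubiquitous enolase, and Pgam1, the ubiquitous phosphoglycerate mutase, fell 1.86-fold and 1.495-fold (limma adjusted p = 0.0044 and 0.012). Pkm and Ldha overlapped between groups and did not pass (limma adjusted p = 0.23 and 0.31).

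Cell cycle genes fell nearly as a whole. All 27 DNA replication genes were called lower (median log2 change -2.59), and 27 of 28 mitosis genes (median -2.27); Pttg1 (securin), picked out because it did not pass, stood at 17.0, 12.0 and 9.73 against 10.8, 12.6 and 14.7 FPKM (limma adjusted p = 0.99). Rrm2, the small subunit of ribonucleotide reductase, fell from 906, 813 and 644 to 32.0, 62.3 and 102 FPKM (13.1-fold, limma adjusted p = 0.00021). Mcm5, part of the replicative helicase, fell from 135, 138 and 119 to 10.6, 17.0 and 15.9 FPKM (8.63-fold, limma adjusted p = 4.9e-05). Among the differentiating libraries replicate 3 kept the most Rrm2 and replicate 1 the least. Pcna, the sliding clamp, fell 4.16-fold and Cdc6, a licensing factor, 9.37-fold (limma adjusted p = 0.0004 and 4.8e-05).

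Mitotic genes fell to low but measurable levels. Cdk1, whose promoter is printed above, stood at 166, 129.5 and 124 FPKM in proliferating and 11.9, 25.7 and 21.1 in differentiating libraries (7.11-fold lower, limma adjusted p = 0.00019), and Ccnb1 (cyclin B1) at 264, 246 and 231 against 21.2, 41.9 and 43.5 FPKM. Cdc20 stood at 312, 263 and 244 against 29.2, 48.8 and 50.1 FPKM (6.40-fold lower, limma adjusted p = 0.00012). These genes were lower still in fresh SMMC, where Cdk1 was at 0.416, 0.637 and 0.978 FPKM and Ccnb1 at 0.787, 1.13 and 0.0937. The kinases Aurka and Plk1 and the ubiquitin-conjugating enzyme Ube2c fell 6.79-fold, 5.73-fold and 6.06-fold (limma adjusted p = 4.8e-05, 5.4e-05 and 4.9e-05). Mki67, a proliferation marker with a long transcript, was at 8.11, 13.7 and 14.2 FPKM, lowest in proliferating replicate 1, against 1.24, 0.966 and 2.89 (limma adjusted p = 0.00096).

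The regulators of G1 were mixed. Of 18 listed cyclins, CDKs and E2Fs 17 were tested; 8 were called lower and 2 higher. The higher calls were Ccnd2 and E2f6, and the latter was lost when any 1 library other than proliferating replicate 1 was left out. Ccnd1 (cyclin D1) fell from 107, 102 and 99.4 to 21.0, 49.7 and 32.0 FPKM, while Ccnd2 (cyclin D2) rose from 12.6, 6.33 and 7.06 to 56.2, 99.1 and 43.0 FPKM (log2 changes -1.64 and 2.76, limma adjusted p = 0.0021 and 0.00054). Ccnd3 (cyclin D3), the D cyclin known to stay on in muscle, was at 395, 399 and 508 FPKM in proliferating and 364, 374 and 456 in differentiating libraries and did not pass (limma adjusted p = 0.57). The 3 D-type cyclins thus showed a fall, a rise and overlapping values. Cdk4 fell 2.64-fold, Cdk2 1.72-fold and Myc, from 23.1, 21.8 and 16.7 FPKM, 2.79-fold (limma adjusted p = 0.0005, 0.0022 and 0.003).

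Of 11 CDK inhibitors and pocket proteins 6 were called higher and 2 lower. Cdkn1a (p21), the inhibitor that myogenic factors are known to induce, rose from 298, 176 and 285 to 1309, 1428 and 1332 FPKM (5.48-fold, limma adjusted p = 0.00012), with the 3 differentiating libraries close together. Cdkn1c (p57), an imprinted inhibitor, rose from 3.76, 1.17 and 7.22 to 272, 129.9 and 45.6 FPKM (27.0-fold, limma adjusted p = 0.00088). Its differentiating values spread widely, highest in replicate 1 and lowest in replicate 3, and it had stood at 257, 159 and 160.0 FPKM in fresh SMMC. Cdkn2b (p15) and Cdkn2d (p19) rose 2.24-fold and 1.91-fold (limma adjusted p = 0.0068 and 0.0089), and Rb1, the retinoblastoma gene, 1.71-fold (0.023). Without differentiating replicate 1 or proliferating replicate 2 Rb1 did not pass (limma adjusted p = 0.082 and 0.096). Its relative Rbl1 (p107), a pocket protein of dividing cells, fell from 7.71, 8.65 and 7.51 to 0.944, 1.302 and 2.84 FPKM (limma adjusted p = 0.0015). Of 14 p53 targets 7 were called higher and none lower, or 2 lower (Bax and Zmat3, named after their values were seen) without differentiating replicate 2. Pmaip1 (NOXA), a BH3-only protein, rose from 7.85, 17.2 and 19.6 to 226, 209 and 217 FPKM (14.6-fold, limma adjusted p = 8.6e-05), and Sesn1, Eda2r and Phlda3 rose 4.38-fold, 3.37-fold and 2.2-fold (limma adjusted p = 0.00058, 0.00071 and 0.0006).

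Histone genes moved both ways. Of 68 listed replication-dependent histone genes 49 were tested; 26 were called lower and 14 higher. By class, a split made after the values were seen, 13 of 15 tested H2A genes were called lower and 2 higher, 6 of 9 H3 genes lower and none higher, 4 of 7 H4 genes lower and 1 higher, and 2 of 4 H1 genes lower and 1 higher. Of 14 tested H2B genes 10 were called higher and 1 lower, with a median log2 change of 1.38, the one class with a median above 0. Hist1h2ag fell from 46.5, 43.0 and 43.6 to 2.01, 2.72 and 6.16 FPKM (10.5-fold, limma adjusted p = 0.00016), and Hist1h2bc rose from 18.7, 14.2 and 11.7 to 107, 132 and 142 FPKM (8.16-fold, limma adjusted p = 5.7e-05). Hist1h2bg and the linker histone Hist1h1c rose 7.30-fold and 4.29-fold (limma adjusted p = 5.3e-05 and 0.00013). Replication-dependent histone transcripts mostly lack a polyA tail, these libraries were made from polyadenylated RNA, and near-identical family members may share reads, so these values are uncertain; the part of either in the result was not tested.

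Genes for making ribosomes fell. Of 14 ribosome biogenesis genes 11 were called lower and none higher. Npm1 (nucleophosmin) fell from 2963, 2499.7 and 2262 to 432, 537 and 567 FPKM and Ncl (nucleolin) from 810.0, 836 and 708 to 130.5, 176 and 183 FPKM (5.02-fold and 4.83-fold, limma adjusted p = 6.4e-05 and 7.2e-05). Nolc1 and Fbl (fibrillarin) fell 3.38-fold and 3.23-fold (limma adjusted p = 0.00019 and 0.00024). Of 83 listed cytosolic ribosomal protein genes 81 were tested; 77 were called lower, with a median log2 change of -0.81 and a range from -1.43 to 1.77. Rpl7a fell from 765, 649.5 and 563 to 219, 267 and 241 FPKM (limma adjusted p = 0.00031) and Rps12 from 206, 201 and 181 to 69.2, 82.2 and 72.5 FPKM (limma adjusted p = 0.00022). FPKM values are relative to the library's total and give no amount per cell. The 2 genes called higher were Rpl3l, the muscle-restricted paralogue of Rpl3, from 0, 0.0532 and 0 to 2.70, 1.79 and 3.06 FPKM (limma adjusted p = 0.00039), and Rps4l, whose call was lost in 9 of 15 alternative settings, among them the omission of any 1 library other than differentiating replicate 3.

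**Figure D3:**
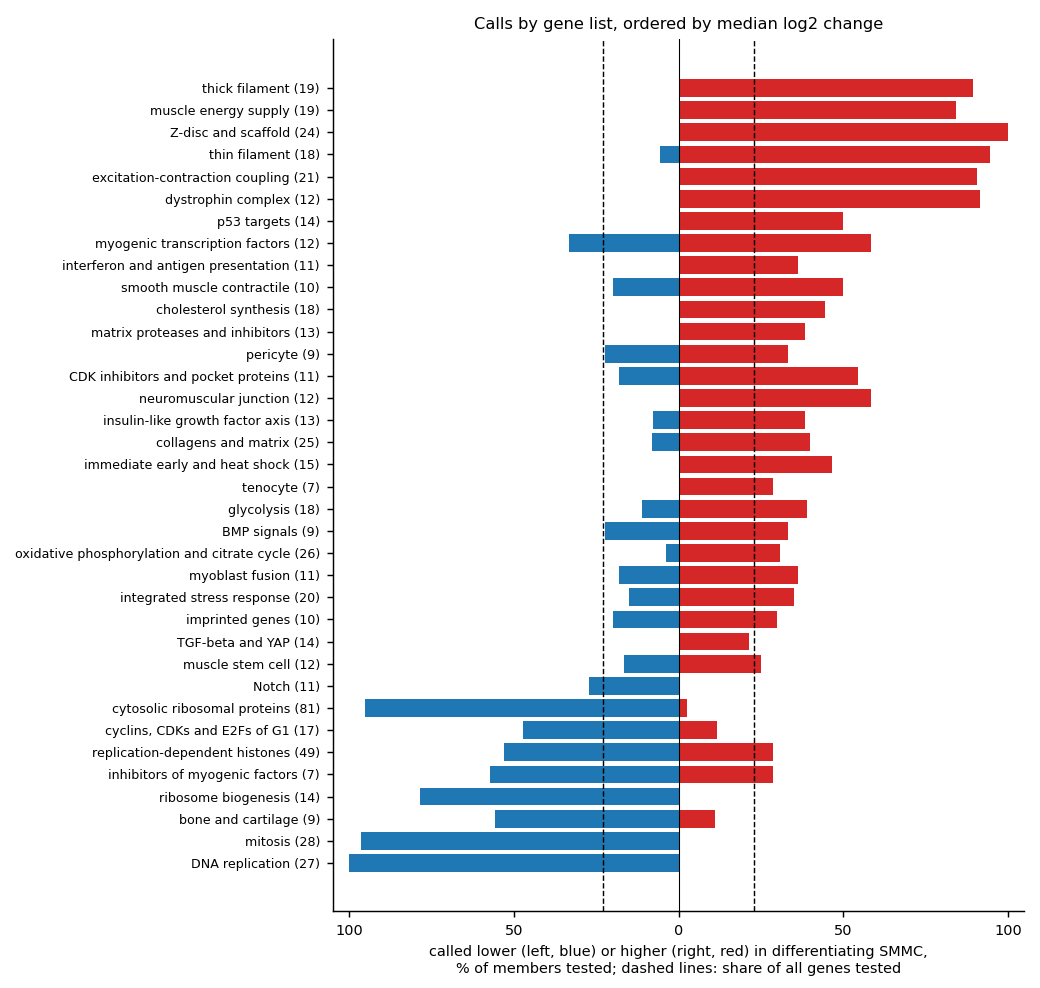
Share of tested members called lower (blue, left) or higher (red, right) in differentiating SMMC, for each list with 7 or more tested genes (number in brackets), ordered by median log2 change. Dashed lines mark the shares of all tested genes, 23.0% lower and 22.8% higher; DNA replication and mitosis (100% and 96.4% called lower) and the Z-disc (100% called higher) are farthest from these lines.

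Secreted and stress genes included one of the steepest rises. Fgf21, a hormone of the integrated stress response, went from 1.29, 0.540 and 0.386 to 161, 238 and 122 FPKM (99.0-fold, limma adjusted p = 1.6e-05). Its list did not move together: of 20 tested genes 7 were called higher and 3 lower. Ddit3 (CHOP) and Trib3 rose 4.06-fold and 4.05-fold (limma adjusted p = 0.0022 and 0.0039), Asns (asparagine synthetase) and Gdf15 did not pass (limma adjusted p = 0.2 and 0.68), and Phgdh, Shmt2 and Mthfd2, enzymes of serine and one-carbon metabolism, fell between 1.71-fold and 1.77-fold (limma adjusted p = 0.013, 0.015 and 0.01). Without differentiating replicate 1 Phgdh did not pass (limma adjusted p = 0.05). In cholesterol synthesis 8 of 18 genes were called higher and none lower (1 lower without proliferating replicate 1). The genes called higher included Fdps, from 47.4, 39.9 and 49.2 to 104, 148 and 99.9 FPKM and Dhcr7 from 3.49, 5.36 and 7.47 to 30.2, 22.9 and 18.1 FPKM (limma adjusted p = 0.00097 and 0.0011).

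Growth factor genes of the IGF axis rose in 5 of 13 tested members and fell in 1. Igf2, an autocrine factor of differentiating myoblasts, went from 8.96, 8.98 and 26.4 to 71.2, 63.3 and 79.6 FPKM (5.16-fold, limma adjusted p = 0.0016), whereas Igf1 was at most 0.423 FPKM in the 6 libraries. Igfbp5, a binding protein known to rise in differentiating myoblasts, went from 2.96, 1.98 and 3.31 to 129, 51.7 and 124 FPKM (25.6-fold, limma adjusted p = 8.2e-05). Igfbp6 and Igfbp3 were 15.5-fold and 4.27-fold higher (limma adjusted p = 0.00042 and 0.0032) and Igfbp2 4.58-fold lower (0.0019). Of 10 tested imprinted genes, 3 were called higher (Igf2, Cdkn1c and Ndn) and 2 lower (30.0% and 20.0%, near the background of 22.8% and 23.0%). Plagl1, a zinc finger factor, fell 3.85-fold and Mest 3.12-fold (limma adjusted p = 0.0034 and 0.048); the calls of Ndn and Mest were each lost in 9 of 15 alternative settings. Of the TGF-beta and YAP genes 3 of 14 tested were called higher: Tgfb3 from 3.71, 4.92 and 9.52 to 73.1, 59.5 and 58.7 FPKM (9.69-fold, limma adjusted p = 0.00015), the receptor Tgfbr2 (2.89-fold, 0.0085) and the activin and myostatin antagonist Fst (4.84-fold, 0.0019). That share, 21.4%, is close to the background. Without differentiating replicate 3 the count was 5, with Ctgf and Inhba (the latter named after its value was seen) added. No member was called lower with all libraries, but Smad7, Cyr61 and Ankrd1 were without differentiating replicate 2, Tgfb2 without differentiating replicate 3 and Amotl2 without proliferating replicate 1; these were named after their values were seen.

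BMP signals were mixed at low level: 3 of 9 tested genes were called higher and 2 lower (33.3% and 22.2%, against 22.8% and 23.0% of all tested genes). The ligands Gdf5 and Gdf6 reached 3.71, 2.57 and 2.41 and 4.87, 9.43 and 15.9 FPKM and the antagonist Grem1 6.10, 12.4 and 5.41 FPKM (limma adjusted p = 0.00024, 0.0014 and 0.00047). Smad6 and Bambi, inhibitors that BMP signalling itself induces, fell from 1.58, 1.44 and 1.25 to 0.164, 0.207 and 0.0102 and from 3.51, 3.25 and 2.91 to 0.711, 1.49 and 0.502 FPKM (limma adjusted p = 0.0018 and 0.005). Id1 to Id3, given above, are known targets of the same signal. BMP signalling itself was not measured, and its part in these falls was not tested. In the Notch list 3 of 11 tested genes were called lower (27.3%, close to the background of 23.0%) and none higher. The count of lower calls was 1 without differentiating replicate 1 or 2 or proliferating replicate 2 or 3. Lfng, a glycosyltransferase that modifies Notch, fell from 18.6, 14.5 and 18.6 to 0.514, 0.584 and 0.512 FPKM (11.8-fold, limma adjusted p = 4.0e-05), and the target Hey1 and the ligand Jag2 fell 2.18-fold and 1.56-fold (0.025 and 0.04); both calls were lost when any 1 of those 4 libraries was left out, with limma adjusted p from 0.051 to 0.14. Hes6, an inhibitor of HES1 that is known in myoblasts, was high in both states at 1603, 1123 and 1379 and 820.1, 1025 and 1505 FPKM and did not pass (limma adjusted p = 0.3).

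Matrix genes were mixed, and those called higher differed widely among the differentiating libraries. Of 27 listed collagens and matrix genes 25 were tested, with 10 called higher (40.0% against the background of 22.8%) and 2 lower. Fn1 (fibronectin) went from 14.6, 22.7 and 19.2 to 104.9, 90.0 and 42.1 FPKM (3.81-fold, limma adjusted p = 0.0024) and Lox (lysyl oxidase) from 7.80, 7.29 and 5.95 to 81.7, 92.7 and 21.0 FPKM (6.95-fold, limma adjusted p = 0.0027). Col1a1 stood at 2.88, 4.06 and 5.77 against 89.6, 69.9 and 6.26 FPKM (log2 change 2.82, SE 0.85, limma adjusted p = 0.027). Differentiating replicate 3 was the lowest of its group for all 3 genes, and for Col1a1 it lay just above the proliferating range. Without that library the log2 change of Col1a1 was 3.97 (limma adjusted p = 0.00024), and without differentiating replicate 1 or 2, or proliferating replicate 1 or 2, the call was lost (limma adjusted p = 0.096, 0.085, 0.077 and 0.067). The list's count of higher calls was 14 without differentiating replicate 3 and 5 without differentiating replicate 1, differentiating replicate 2, proliferating replicate 1 or proliferating replicate 2. The summed level of 12 fibro-adipogenic markers was 38.1, 27.2 and 21.6 FPKM in proliferating and 118, 206 and 59.97 FPKM in differentiating libraries. Differentiating replicate 3 was thus the lowest of its group for this sum too. Pdgfra, the defining one, was low in every library and overlapped between the groups. It stood at 0.292, 0.115 and 0.0455 FPKM in proliferating and 0.0188, 1.82 and 0.494 in differentiating libraries. In each group 2 markers were at 0 in all libraries. Of the 12, 4 were tested and 1 was called higher, or 2 (Gsn and Dcn) without differentiating replicate 3. Their part in the matrix result was not tested. All these levels lay far below fresh SMMC, where Col1a1 was at 1833, 1169 and 1054 FPKM.

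Matrix proteases and their inhibitors rose in 5 of 13 tested genes, of 19 listed, and fell in none. Plat, the tissue plasminogen activator, went from 4.49, 3.96 and 3.77 to 38.4, 67.6 and 19.9 FPKM and Timp3, a metalloproteinase inhibitor, from 7.58, 8.75 and 12.1 to 67.6, 104 and 27.3 FPKM (7.58-fold and 5.72-fold, limma adjusted p = 0.00067 and 0.0024). Differentiating replicate 3 was again the lowest, and without it 8 members were called higher. Lamb1 (a laminin chain) and Serpinh1 (the collagen chaperone HSP47) were the 2 matrix genes called lower, by 1.86-fold and 1.91-fold (limma adjusted p = 0.0078 and 0.034). Serpinh1 did not pass when any 1 library other than differentiating replicate 2 was left out (limma adjusted p from 0.0503 to 0.097). Without proliferating replicate 1 the protease Adamts4, named after its value was seen, was called lower.

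Interferon and antigen presentation genes included 4 of 11 tested members called higher and none lower. H2-K1, a classical MHC class I chain, rose from 17.7, 15.2 and 15.4 to 152, 134 and 106 FPKM (7.65-fold, limma adjusted p = 4.6e-05), and its partner B2m, at 124, 89.9 and 93.8 against 125, 219 and 84.2 FPKM, did not pass (limma adjusted p = 0.37). Fresh SMMC held 261, 228 and 249.1 FPKM of H2-K1 and fresh MuSC 589 and 1037. Isg15, an interferon-induced ubiquitin-like protein, was at 2.66, 5.89 and 0.0885 FPKM in differentiating libraries, highest in replicate 2, and was not tested. Ifi35 rose 2.84-fold (limma adjusted p = 0.0075). The list's count was 2 without differentiating replicate 1 and 6 without differentiating replicate 3. Of 15 tested immediate early and heat shock genes 7 were called higher and none lower, or 4 higher without proliferating replicate 2 and 1 lower (Klf6, named after its value was seen) without differentiating replicate 2. Egr3 rose 5.57-fold and Egr1 3.90-fold, from 24.5, 20.2 and 39.3 to 86.4, 182 and 80.3 FPKM (limma adjusted p = 0.00011 and 0.0027). Egr1 and Fos were far higher in the freshly sorted cells, at 1319.9, 1846 and 1893 and 1082, 1499 and 1567 FPKM.

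**Figure D4:**
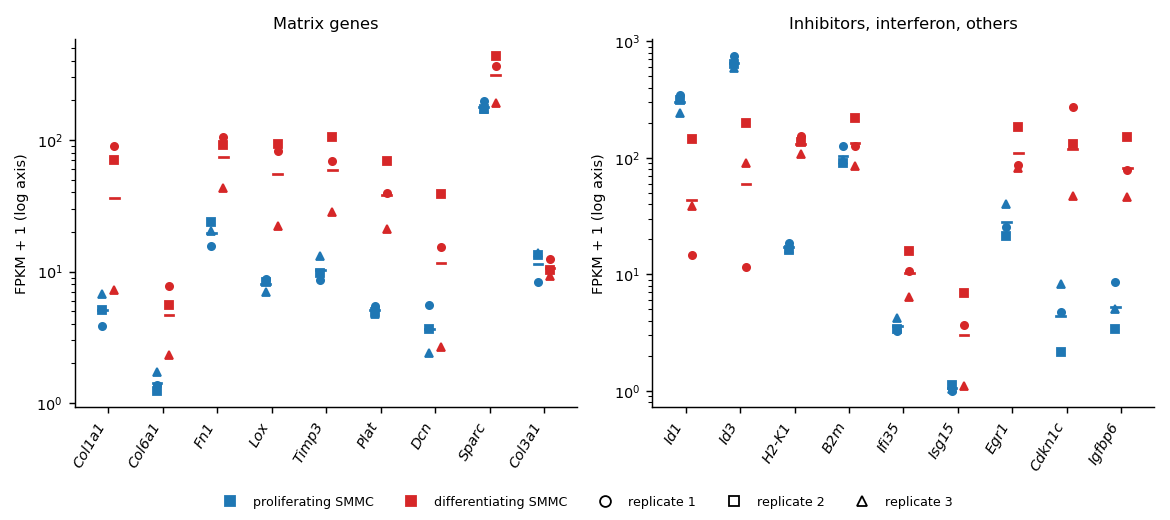
FPKM + 1 on a log axis for genes whose differentiating libraries disagree, 1 point per library (shape gives the replicate), blue for proliferating and red for differentiating SMMC, with a bar at the mean of the log values (n = 3 each). Differentiating replicate 3 (triangle) is the lowest red point for Col1a1, Fn1, Lox, Timp3 and Plat, and replicate 2 (square) the highest for Id1, Id3, Isg15 and Egr1.

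The largest single increase belonged to Msln (mesothelin), a surface protein best known from mesothelium, from 3.16, 1.79 and 1.01 FPKM in proliferating to 894, 869 and 748 in differentiating libraries (292-fold, SE 0.26 on the log2 scale, limma adjusted p = 5.5e-06). The 3 differentiating libraries agreed closely. Fresh SMMC had 24.5, 41.4 and 45.3 FPKM of Msln and fresh MuSC were listed at 0. Tceal7, which muscle-restricted regulators are known to drive, went from 0.486, 0.420 and 1.14 to 141, 122 and 134 FPKM (80.4-fold, limma adjusted p = 6.1e-06).

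Several of the largest decreases were of genes that stood high in the proliferating cultures and near 0 in the fresh cells. Sct (secretin), a peptide hormone of the gut, stood at 64.3, 44.9 and 51.3 FPKM in proliferating libraries and 0.0951, 0.0706 and 0.253 in differentiating ones (47.4-fold lower, limma adjusted p = 8.0e-06), with 0.0899, 0.184 and 0.0359 FPKM in fresh SMMC. Adgrg3, an adhesion G protein-coupled receptor, stood at 55.2, 45.3 and 39.5 against 0.0644, 0.0506 and 0.0230 FPKM (45.2-fold lower, limma adjusted p = 8.0e-06), with 0.161, 0.214 and 0.0569 FPKM in fresh SMMC. Fresh MuSC stood at 0 and 0.00589 FPKM for Sct and 0 and 0.00959 for Adgrg3. Fam19a5, a secreted peptide, went from 101, 87.1 and 66.8 to 3.14, 2.88 and 6.94 FPKM (16.8-fold lower, limma adjusted p = 7.7e-05). Cdca7, Spc24 and Mybl2, which serve replication, the kinetochore and mitotic transcription, fell 12.4-fold, 12.1-fold and 11.7-fold (limma adjusted p = 5.4e-05, 0.00013 and 2.6e-05).

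Transcription factors of bone fell as well. Of 16 bone and cartilage genes 9 were tested, with 5 called lower and 1 higher. Sp7 (osterix), which bone-forming cells need, stood at 32.2, 49.2 and 47.8 FPKM in proliferating and 0, 0.0553 and 0.259 in differentiating libraries (39.4-fold lower, limma adjusted p = 1.6e-05), against 0.397, 0.789 and 0.0811 in fresh SMMC. The homeobox gene Dlx2 stood at 69.5, 73.2 and 81.2 against 0.874, 3.08 and 2.47 FPKM (25.3-fold lower, limma adjusted p = 4.8e-05), and Dlx3 and Runx2, the master factor of bone, fell 5.42-fold and 4.13-fold (limma adjusted p = 0.0004 and 0.00049). Spp1 (osteopontin), which myoblasts also express, went the other way, from 908, 625 and 639 to 1348, 999 and 1319.6 FPKM (limma adjusted p = 0.014, and 0.056 and 0.06 without differentiating replicate 1 or proliferating replicate 2).

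**Figure D5:**
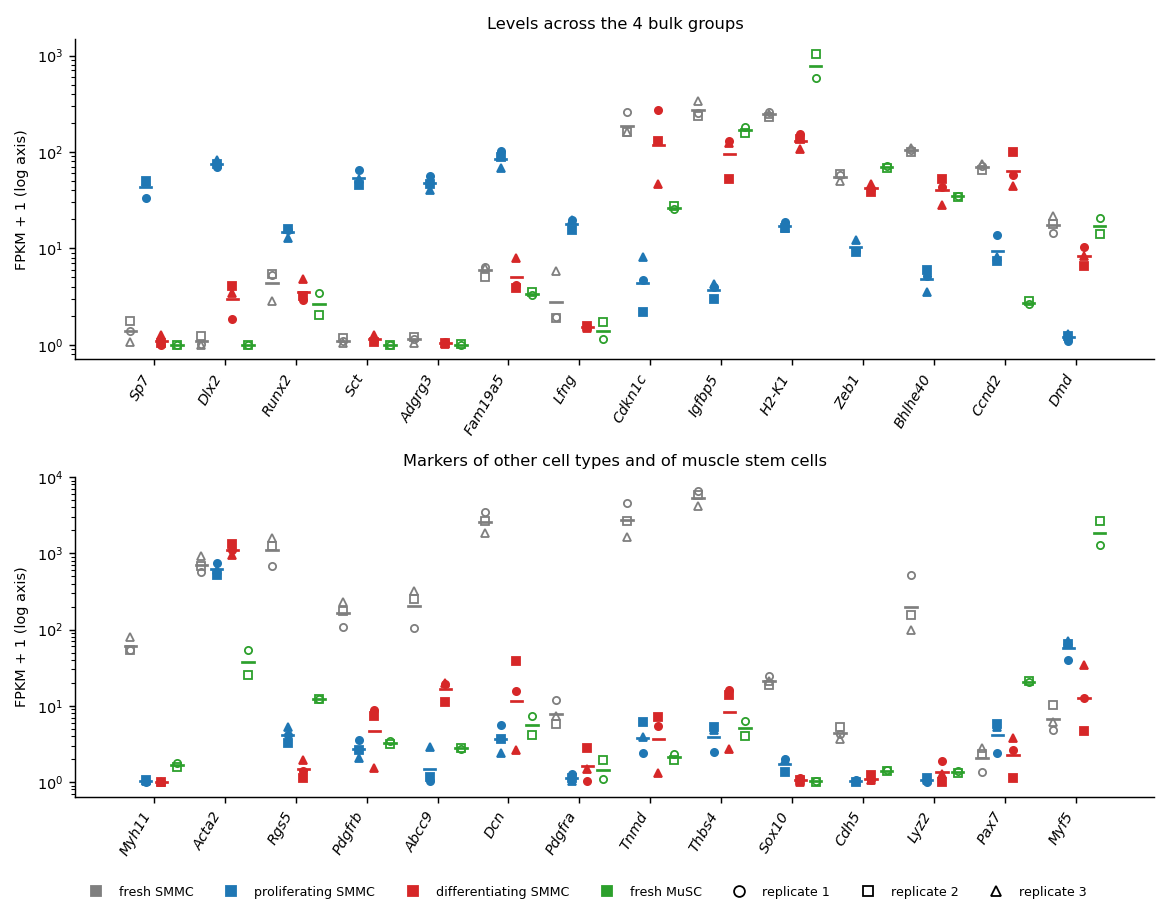
FPKM + 1 on a log axis in fresh SMMC (grey, n = 3), proliferating SMMC (blue, n = 3), differentiating SMMC (red, n = 3) and fresh MuSC (green, n = 2), 1 point per library, with a bar at the mean of the log values. Sp7, Dlx2, Sct and Adgrg3 stand high only in the proliferating libraries of these 4 groups, Cdkn1c, Igfbp5, H2-K1, Bhlhe40 and Dmd are lowest there, and Rgs5, Tnmd, Thbs4 and Sox10 lie far below fresh SMMC in both cultures.

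Markers of most other cell types that the sort could hold were low. The summed level of 8 blood cell markers was 8.07 to 10.1 FPKM in proliferating and 2.09 to 4.81 in differentiating libraries, and that of 10 endothelial markers 4.74 to 8.14 and 2.78 to 6.46 FPKM; 1 gene of each list was tested, and both were called lower (Laptm5, 4.59-fold, limma adjusted p = 0.00026, and Egfl7, 1.84-fold, 0.032). Egfl7 did not pass without differentiating replicate 1 or 3 or proliferating replicate 1 or 3 (limma adjusted p from 0.054 to 0.11). The 12 Schwann cell markers summed to 19.8 to 44.0 and 33.9 to 51.3 FPKM, with Sox10 under 1 FPKM in all 6 libraries, and the 12 tenocyte markers to 10.7 to 25.6 and 18.8 to 47.4 FPKM, against 9257 to 18903 in fresh SMMC. Of 6 tested Schwann cell markers Egr2 and Erbb3 were called higher and Mbp and Ngfr lower, and of 7 tested tenocyte markers Scx and Cilp2 were called higher (2.30-fold and 3.11-fold, limma adjusted p = 0.0035 and 0.014). Without differentiating replicate 1 the counts of higher calls were 1 and 1. Of 14 pericyte markers 9 were tested: 3 were called higher and 2 lower (33.3% and 22.2%, against 22.8% and 23.0% of all tested genes). Abcc9, a subunit of muscle and vascular potassium channels, rose to 18.5, 10.3 and 19.2 FPKM from 0.0361, 0.150 and 1.87 (limma adjusted p = 0.00049), while Rgs4 fell from 34.2, 27.5 and 25.7 to 1.51, 1.11 and 4.09 FPKM (limma adjusted p = 0.00023) and Rgs5 fell 2.84-fold (0.003). Of 15 smooth muscle contractile genes 10 were tested, with 5 called higher and 2 lower; the higher count was 3 without differentiating replicate 1 or without proliferating replicate 2, and the lower count 1 when any library but differentiating replicate 2 was left out. Acta2, smooth muscle actin, which myoblasts also use, went from 734, 518 and 605 to 1088, 1322 and 960.0 FPKM (limma adjusted p = 0.0059). Smtn and Synpo2 rose 3.10-fold and 8.47-fold (limma adjusted p = 0.00034 and 0.0017), whereas Tagln and Cnn1 overlapped (limma adjusted p = 0.15 and 0.25, or 0.0089 and 0.0047 without differentiating replicate 3) and Myl9 fell 2.38-fold (0.0023). Cd36, a fatty acid carrier of muscle as well as fat, rose from 0.0602, 0.323 and 0.614 to 19.1, 16.9 and 8.47 FPKM (limma adjusted p = 0.00017), Pparg, a nuclear receptor of fat cells, fell 2.24-fold (0.015, a call lost without differentiating replicate 1), and Adipoq, the defining adipocyte gene, was at 0 in 5 of the 6 libraries.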

How the data were processed

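Gene expression was read from 6 bulk libraries. The authors deposited FPKM values, 1 per gene symbol, per the file headers. The tools listed include HISAT2 2.1.0, StringTie, SAMtools 1.3.1 and R, with build mm10, per the submitters' processing notes. The sources used here do not name the annotation, the strand setting or the handling of shared reads; overlapping genes and near-identical paralogues are uncertain. Of the table's columns 4 matched no sample and were left out. Read counts are lost in this unit: among 1205 genes under 0.3 FPKM in differentiating replicates 1 and 2, the most common 0.01 log2 bin of ratios held 0.913%, so depth is unknown and precision was judged from the spread between libraries.

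Genes with at least 1 FPKM in 3 or more libraries were tested on log2(FPKM + 1) with limma 3.58.1 in R 4.3.3 (intensity trend, 4 residual degrees of freedom, two-sided, Benjamini-Hochberg adjustment over all tested genes, threshold 0.05). The script was tested on simulated data. Fold changes are on the FPKM + 1 scale, which understates changes of low genes. An exact permutation test of 3 against 3 libraries cannot go below 0.1. The 42 gene lists and the members were chosen with earlier results of these data known, and lists are described by counts beside those of all genes.

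Genes were named by a rule: the 5 sort genes; the 10 largest increases and 10 largest decreases among called genes whose groups do not overlap and whose higher mean reaches 10 FPKM, without predicted, mitochondrial, haemoglobin, histone and ribosomal RNA entries; key genes of each list; up to 4 members per list with the smallest adjusted p and up to 3 called the other way; and the 5 most abundant genes per group. Some genes the rule selects are not reported here. Genes outside it are said to be so where named. Promoter windows came from RefSeq (GRCm38.p6). Figures were drawn with matplotlib 3.10.9. The 2 single-cell libraries were not analysed here.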

Additional observations from a re-analysis of the deposited data

How the results depend on the processing

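The comparison was repeated under 15 alternative settings. With at least 10 FPKM in 3 or more libraries 5688 genes were tested, and 3197 were called, 1426 higher and 1771 lower, of them 898 higher by at least 2-fold; fewer genes enter by construction. Leaving out 1 library at a time gave 3808 (without proliferating replicate 2) to 5043 (without proliferating replicate 1) called genes. Called genes numbered 4842 of 17604 without a filter, 4820 with a pseudocount of 0.1, 4897 after median-of-ratios rescaling, 5086 after quantile normalization, 4951 without Rn45s, 5165 with all 11 bulk libraries in one fit and 4892 without the intensity trend. The share of calls that were higher ran from 44.6% (stricter filter) to 52.7% (no filter). With the replicate number as a block 4462 genes were called. Deviations from the group means of same-numbered libraries correlated at -0.11, -0.15 and 0.14, and those of differently numbered ones at -0.29 to 0.31. With 3 libraries per group these correlations cannot show whether the numbers pair the samples. Of 227 called genes that the naming rule selects and that are reported here, 195 kept their call under every setting that tested them, and 32 lost it in at least 1; of 40 that were not called, 17 gained a call in at least 1. The pooled contractile and the pooled replication and mitosis counts stayed within 1.5 times of their values. Depth is unknown for FPKM, so no counting error can be given for low values.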
